A study of Mus musculus with 8 samples.

Results

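Mouse embryonic stem cells lacking the histone demethylase Jmjd1a were compared directly with mouse embryonic stem cells lacking its relative Jmjd1b. The genes of these enzymes are now named Kdm3a and Kdm3b. The comparison was made up of the 4 arrays whose titles name a single knockout, 2 Jmjd1a-KO and 2 Jmjd1b-KO, out of 8 Affymetrix expression arrays in all. The other arrays were 2 of wild-type cells (WT) and 2 of cells without both enzymes (double-KO), and they served here as points of reference and for the estimate of spread. Only probe sets whose 8 log2 values spanned at least 0.01 were used, which left 11502 of 45101 probe sets and 7181 genes. The span was 0.0101 in the probe set just inside this limit and 0.00967 in the one just outside.

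The Jmjd1a-KO cells were labelled as a deficient line with the genotype Jmjd1adelta/delta; Jmjd1b+/+. The Jmjd1b-KO cells carried Jmjd1a+/+; Jmjd1bdelta/delta, and the WT cells carried Jmjd1a+/+; Jmjd1b+/+. The labels derive the Jmjd1b-KO and WT cells from mice, whereas the design text describes Jmjd1b-deficient lines made by targeting and adenoviral Cre. Double-KO cells were made from a Jmjd1a-deficient line by OHT-induced deletion of a conditional Jmjd1b allele through MerCreMer, an inducible Cre. The treatment text of all 8 samples names 800 nM OHT, and no sample is labelled as a control for it. Cells grew with 10% knockout SR, 1% fetal calf serum and LIF, the cytokine that maintains the undifferentiated state. The sources used here do not say which line gave which replicate, or whether the lines share a genetic background, so the effects of genotype and of line cannot be told apart. The labels call the arrays of a group biological replicates without saying what was separate, so p-values measure the spread between these samples.

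Methylation of lysine 9 on histone H3 (H3K9) is a mark of silenced chromatin. It is written by enzymes such as G9a, encoded by Ehmt2, and is removed in its lower methylation states by the Kdm3 family. Kdm3a is also known as a hypoxia-inducible gene and for its part in male germ cells and in sex determination. In embryonic stem cells H3K9 methylation, together with DNA methylation and Polycomb complexes, keeps germline genes, imprinted alleles and genes of differentiated cells silent.

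On the log2 scale the medians of the arrays over all probe sets were 6.80 to 6.81. As 33238 of the 45101 probe sets spanned less than 1e-06, this closeness says little about the probe sets used. Precision is limited by having only 2 arrays per group. Replicates stood further apart in some groups than in others: the SD across genes of the difference between the replicates was 0.34 in Jmjd1a-KO, 0.12 in Jmjd1b-KO, 0.15 in WT and 0.29 in double-KO. Replicate 2 of Jmjd1a-KO and replicate 2 of double-KO also stood apart in transcripts of the Y chromosome. Eif2s3y, a Y-linked translation factor gene, read 11.72 and 3.19 in the Jmjd1a-KO arrays and 12.17 and 3.73 in the double-KO arrays, while WT gave 7.62 and 7.66. Uty was at 8.97 and 3.96 in Jmjd1a-KO and at 9.10 and 8.94 in Jmjd1b-KO. The mean of the 3 measured genes of the list of Y-linked genes and Xist ranged from 4.12 to 9.01 in Jmjd1a-KO and from 8.33 to 9.15 in Jmjd1b-KO, and the part of this difference in the results below was not tested. Without both arrays low in Y-linked transcripts 3053 genes passed the test given below, of which 1347 were higher and 1706 lower in Jmjd1a-KO. The 8 embryonic stem cell markers were all measured, at a mean level of 12.29 to 12.38 in Jmjd1a-KO and 11.81 to 11.85 in Jmjd1b-KO. The POU factor gene Pou5f1 was at 12.39 and 12.49 in Jmjd1a-KO and at 12.59 and 12.67 in Jmjd1b-KO.

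The targeted transcripts matched the labels. Kdm3a read 5.08 and 4.87 in the Jmjd1a-KO arrays, 12.80 and 12.83 in Jmjd1b-KO, 12.83 and 12.73 in WT and 4.60 and 4.77 in double-KO. It was thus low in both groups labelled as lacking Jmjd1a, and the groups did not overlap. The difference, Jmjd1a-KO minus Jmjd1b-KO, was -7.84 ± 0.10 (SE, n = 2 and 2; adjusted p = 2.34e-06), where p comes from limma with Benjamini-Hochberg adjustment over 7181 genes and the threshold was 0.05. All differences below are on the log2 scale in this direction, with the SE of the same fit. Kdm3b was at 9.95 and 9.81 in Jmjd1a-KO, at 7.07 and 7.10 in Jmjd1b-KO, at 9.91 and 9.96 in WT and at 7.06 and 7.66 in double-KO, a difference of 2.79 ± 0.19 (adjusted p = 0.000973). Another probe set of Kdm3b stayed at 7.58 on all arrays, below the span limit. The third family member Jmjd1c was slightly higher in Jmjd1a-KO, at 11.15 and 11.05 against 10.70 and 10.64 (0.43 ± 0.11, adjusted p = 0.0389), but it did not pass when any one of these 4 arrays was left out. Neither Kdm3b in Jmjd1a-KO nor Kdm3a in Jmjd1b-KO passed the test against WT: the differences were -0.06 ± 0.19 and 0.03 ± 0.10.

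The cells without Jmjd1a and those without Jmjd1b differed at 27.5% of the 7181 genes tested, in both directions. The genes tested are those with a probe set that spanned at least 0.01, out of 18194 genes on the array. Among the genes lower in Jmjd1a-KO were germline and meiotic genes, interferon-inducible genes, immediate early genes, stress-response and amino acid genes and the maternally expressed RNAs of the Meg3 cluster. Among the higher ones were paternally expressed imprinted genes, neural genes and genes of the extracellular matrix and of contractile filaments. At an adjusted p under 0.05, 1978 of 7181 genes passed the test, 974 higher (13.6%) and 1004 lower (14%) in Jmjd1a-KO. Of these, 417 differed by at least 1 on the log2 scale, 70 by at least 2 and 18 by at least 3. The median absolute difference was 0.57 among the genes called and 0.20 among all genes, beside a median absolute difference between replicates of 0.153 in Jmjd1a-KO and 0.0603 in Jmjd1b-KO over all genes. The 4 arrays did not overlap between the groups for 4905 genes (68.3%), so an absence of overlap alone says little, and all 1978 genes called were among them. The median difference over all genes was -0.01. This median and the shares of 13.6% higher and 14% lower are the background for every list count below. The counts were lowest when either Jmjd1b-KO array was left out. Such a fit also loses that group's replicate difference, whose SD of 0.12 was the smallest, from the shared estimate of spread. The difference of Kdm3a was -7.85 without Jmjd1b-KO replicate 1 and -7.83 without replicate 2. In these bulk samples, fewer cells of a type and less RNA per cell cannot be told apart.

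**Figure D1:**
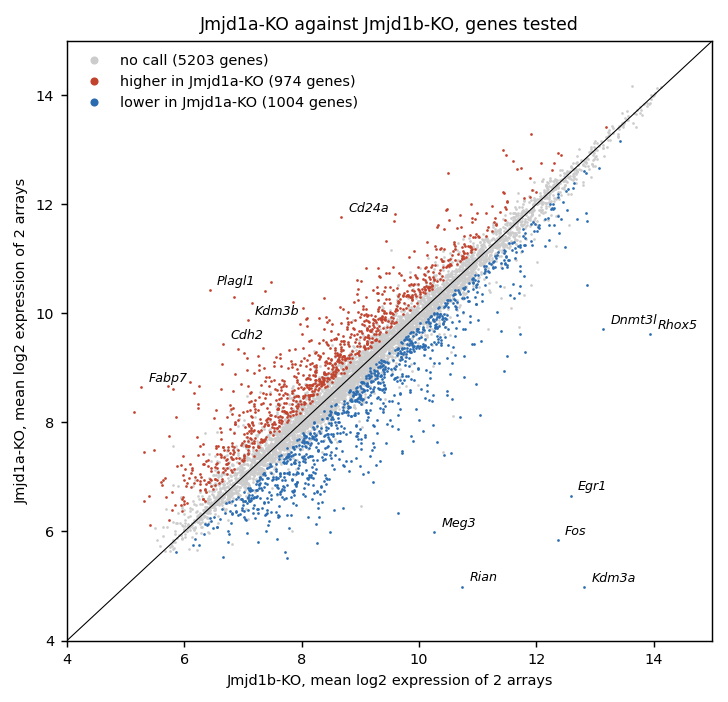
Mean log2 expression of the 7181 genes in the 2 Jmjd1b-KO arrays (x axis) and the 2 Jmjd1a-KO arrays (y axis), with the line of equality. Red points are the 974 genes higher and blue points the 1004 genes lower in Jmjd1a-KO at an adjusted p under 0.05, and Kdm3a, Fos, Egr1 and Rian lie farthest below the line.

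The genes with the largest deficits in Jmjd1a-KO were led, after Kdm3a, by transcription factor genes of the rapid response to growth factors. Fos, which encodes a component of the AP-1 factor, was at 5.98 and 5.69 in Jmjd1a-KO and at 12.14 and 12.60 in Jmjd1b-KO. Egr1, a zinc finger factor gene, was at 6.40 and 6.91 against 12.28 and 12.88. WT lay on the side of Jmjd1a-KO for both, with Fos at 6.13 and 6.34 and Egr1 at 8.05 and 7.90, so that it was the Jmjd1b-KO arrays that stood high. The differences were -6.53 ± 0.25 for Fos (adjusted p = 0.000197) and -5.93 ± 0.57 for Egr1 (adjusted p = 0.00199). Next came Rian and Meg3, noncoding RNAs expressed from the maternal chromosome, and Rhox5, an X-linked homeobox gene. Rhox5 was at 9.75 and 9.49 in Jmjd1a-KO, 14.11 and 13.76 in Jmjd1b-KO and 10.61 and 10.68 in WT, a difference of -4.32 ± 0.16 (adjusted p = 0.000197). Against WT it was lower in Jmjd1a-KO (-1.02) and higher in Jmjd1b-KO (3.30), and both passed. The rest of the 15 largest deficits were in Dnmt3l, Hormad1, Tdrd12, Aire, Nupr1, Tex19.1, Hsf2bp, Plac8 and Arhgap30, between -3.43 and -2.51.

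Several of these 15 genes are known from germ cells. Tdrd12, a Tudor domain gene of the piRNA pathway, was at 7.36 and 7.53 in Jmjd1a-KO and at 10.53 and 10.56 in Jmjd1b-KO, with WT between them at 9.43 and 9.40. Tex19.1, which restrains retrotransposons in germ cells and pluripotent cells, was at 7.39 and 7.88 against 10.17 and 10.44. Aire, known as the autoimmune regulator of the thymus, was at 7.96 and 6.83 against 10.35 and 10.50. In each of them both Jmjd1a-KO arrays lay below both Jmjd1b-KO arrays, by -3.10 ± 0.09 for Tdrd12 (adjusted p = 0.000129), -2.67 ± 0.19 for Tex19.1 (adjusted p = 0.00118) and -3.02 ± 0.38 for Aire (adjusted p = 0.00427). Plac8 differed in where WT stood: it was at 9.01 and 9.56 in Jmjd1a-KO, 11.63 and 12.00 in Jmjd1b-KO and 12.03 and 12.13 in WT, so that the Jmjd1a-KO arrays stood low.

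The largest excesses in Jmjd1a-KO were in Plagl1, Ntn1, Fabp7, Snhg14, Cd24a, Ptn, Nrk, Dcaf12l1, Insm1, Frmd4b, Kdm3b, Cdh2, Sox1, Fut9 and Lpar6, between 3.99 and 2.44. Plagl1, a paternally expressed zinc finger gene, was at 9.78 and 11.07 in Jmjd1a-KO, 6.43 and 6.44 in Jmjd1b-KO and 8.79 and 8.66 in WT (3.99 ± 0.51, adjusted p = 0.00434). Ntn1, which encodes the guidance cue netrin, was at 9.82 and 10.79 against 6.95 and 6.73 (3.46 ± 0.45, adjusted p = 0.00462). The groups were apart in both genes, and the Jmjd1a-KO replicates differed by about 1. Cd24a, the gene of a surface glycoprotein, was at 11.41 and 12.11 in Jmjd1a-KO and at 11.29 and 11.24 in WT but at 8.72 and 8.64 in Jmjd1b-KO, a difference of 3.08 ± 0.34 (adjusted p = 0.00305). Here the Jmjd1b-KO arrays stood low. For Dcaf12l1, at 9.80 and 10.58 against 7.35 and 6.96, and for Fut9, a fucosyltransferase gene, at 9.72 and 8.98 against 7.06 and 6.75, WT instead stood near Jmjd1b-KO, at 7.65 and 7.72 and at 7.13 and 6.94.

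**Figure D2:**
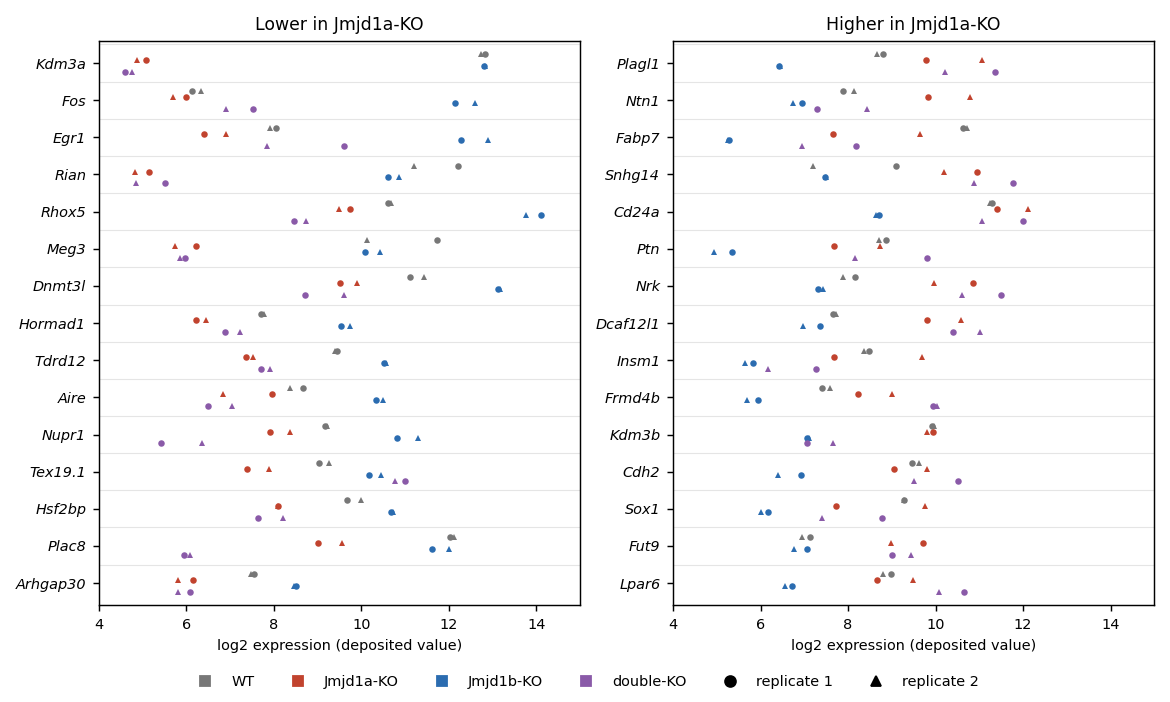
Deposited log2 values of the 15 genes with the largest deficit (left) and the 15 with the largest excess (right) in Jmjd1a-KO, with 1 point per array, colour for the group and shape for the replicate. Fos, Egr1 and Rhox5 are highest in the Jmjd1b-KO arrays, whereas Kdm3a and Plac8 stand low in the groups without Jmjd1a.

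Germline genes had the lowest median among the gene lists with 8 or more measured members. Genes of this list are known to be silenced by DNA methylation in embryonic and somatic cells and to act in germ cell development and genome defence. Of 17 measured among 30 listed genes, 12 were lower in Jmjd1a-KO, 1 was higher and 4 did not pass, with a median of -1.25 beside -0.01 over all genes. The gene that was higher was Zfp42, a pluripotency gene that the list also holds. Meiosis genes moved the same way: 8 of 10 measured were lower, none was higher, and the median was -1.10. The numbers of lower germline genes lay between 10 and 13 when any 1 array was left out, and those of lower meiosis genes between 6 and 9.

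Among the germline genes, Hormad1, whose product marks the axis of meiotic chromosomes, was at 6.22 and 6.44 in Jmjd1a-KO and at 9.53 and 9.74 in Jmjd1b-KO (-3.30 ± 0.14, adjusted p = 0.000306). Hsf2bp, a gene of meiotic recombination, was at 8.08 and 8.10 against 10.67 and 10.73 (-2.60 ± 0.20, adjusted p = 0.00130). Both had WT between the single knockouts, at 7.70 and 7.77 for Hormad1 and at 9.68 and 9.99 for Hsf2bp. Sohlh2, a germ cell transcription factor gene, was at 7.25 and 7.16 in Jmjd1a-KO, 9.01 and 8.98 in Jmjd1b-KO and 9.01 and 9.04 in WT (-1.79 ± 0.06, adjusted p = 0.000129). In this gene the Jmjd1a-KO arrays stood low. Dazl, which encodes an RNA-binding protein of germ cells, showed the reverse arrangement: Jmjd1a-KO at 6.88 and 6.71 and WT at 6.73 and 6.72 lay together below Jmjd1b-KO at 8.0 and 8.10 (-1.25 ± 0.08, adjusted p = 0.000883). Stk31, Mael, Piwil2, Slc25a31, Sycp3, Ddx4, Tex11 and Sycp1 differed by -1.86 to -0.64.

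Set against WT, 6 of the 17 germline genes were lower in Jmjd1a-KO, beside 7.92% of all genes, and 9 were higher in Jmjd1b-KO, beside 13.6% of all genes. These comparisons share the WT arrays, and the median differences were -0.23 and 0.41. Of the 10 meiosis genes, 3 were lower in Jmjd1a-KO and 7 were higher in Jmjd1b-KO than in WT. Stra8, which licenses entry into meiosis and responds to retinoic acid, was an exception among them: it was at 8.68 and 8.71 in Jmjd1a-KO, 10.87 and 11.07 in Jmjd1b-KO and 11.34 and 11.45 in WT (-2.27 ± 0.35 between the knockouts, adjusted p = 0.00758), and it did not pass without Jmjd1b-KO replicate 2. Syce1, Dmc1, Meioc, Syce3, Syce2, Smc1b and Tex12, genes of the synaptonemal complex, of recombination, of cohesion and of meiotic progression, differed by -1.51 to -0.64. Meioc, at 7.95 and 7.95 against 9.11 and 9.31, also did not pass without that array.

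Promoter sequence was set beside these values because germline genes silenced in embryonic stem cells are known targets of a Polycomb complex with the factors Mga, Max and E2f6, which bind the hexamers CACGTG and TCCCGC. Windows were the 250 bases before the start site in RefSeq (GRCm38.p6), searched on both strands, and 27025 genes had one. CACGTG occurred in 9 of the 14 measured germline genes with a window (64.3%) and in 7 of the 10 lower ones, beside 10.7% of 5825 tested genes and 6.86% of all genes. TCCCGC occurred in 6 of the 14 (42.9%), beside 35.4% of tested genes and 18.8% of all genes. In the meiosis list CACGTG occurred in 3 of 9 windows and TCCCGC in 5. The following stretches, with CACGTG in capitals and written on the gene's strand, show where the hexamer lies in 5 germline genes that were lower in Jmjd1a-KO. They are Hormad1 at chr3:95559612-95559676 (plus strand), Stk31 at chr6:49395439-49395534 (plus), Mael at chr1:166238917-166238994 (minus), Sycp3 at chr10:88459499-88459586 (plus) and Ddx4 at chr13:112652311-112652384 (minus).
Hormad1: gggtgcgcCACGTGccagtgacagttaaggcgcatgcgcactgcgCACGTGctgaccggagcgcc
Stk31: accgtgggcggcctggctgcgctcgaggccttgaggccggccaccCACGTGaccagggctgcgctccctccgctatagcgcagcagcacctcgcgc
Mael: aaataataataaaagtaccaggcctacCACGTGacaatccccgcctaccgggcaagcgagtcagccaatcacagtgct
Sycp3: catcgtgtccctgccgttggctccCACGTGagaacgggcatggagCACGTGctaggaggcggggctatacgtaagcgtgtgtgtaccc
Ddx4: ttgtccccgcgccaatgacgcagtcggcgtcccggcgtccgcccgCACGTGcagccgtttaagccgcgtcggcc
A match describes the letters of the window and was not tested as a binding site. Hormad1 and Sycp3 held the hexamer at 2 places, 14 and 37 bases from the last match to the start site. The single matches in Ddx4, Stk31 and Mael ended 23, 49 and 217 bases before it.

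**Figure D3:**
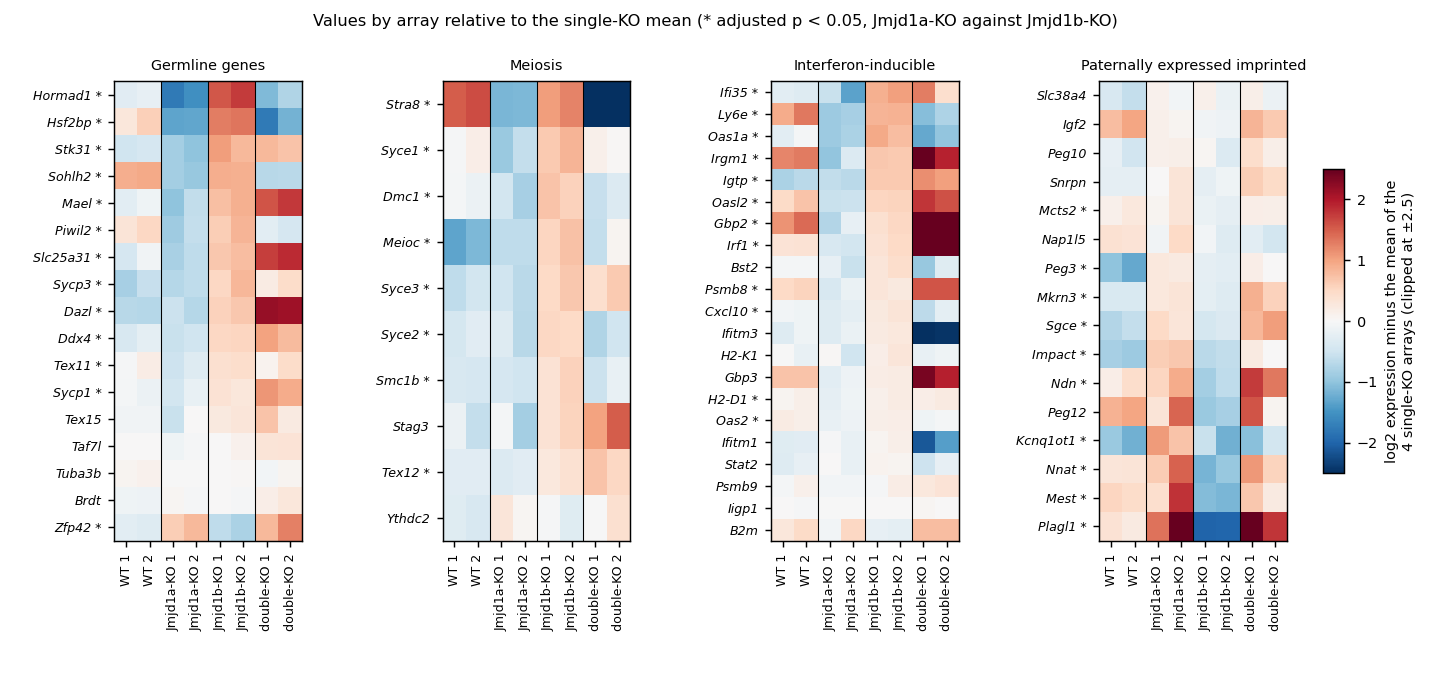
Log2 values of the measured members of 4 gene lists on all 8 arrays, each minus the gene's mean over the 4 single-KO arrays and with colour limited at 2.5 either way; asterisks mark an adjusted p under 0.05 between Jmjd1a-KO and Jmjd1b-KO. Germline, meiosis and interferon-inducible genes are mostly blue in the Jmjd1a-KO columns and red in the Jmjd1b-KO columns, and paternally expressed imprinted genes show the opposite.

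Genes of the de novo DNA methylation machinery were lower in Jmjd1a-KO, and 2 genes that oppose methylation were higher. Of 13 measured genes 5 were lower and 2 were higher (median -0.28). Dnmt3l, a cofactor of the de novo methyltransferases, was at 9.50 and 9.91 in Jmjd1a-KO, 13.12 and 13.16 in Jmjd1b-KO and 11.11 and 11.42 in WT (-3.43 ± 0.30, adjusted p = 0.00166). It was lower than WT in Jmjd1a-KO (-1.56, adjusted p = 0.023 by limma) and higher than WT in Jmjd1b-KO (1.87, adjusted p = 0.013 by limma). The methyltransferase genes Dnmt3a, at 10.34 and 11.02 against 11.73 and 11.83, and Dnmt3b, at 11.65 and 11.93 against 12.32 and 12.42, were also lower (-1.10 ± 0.28 and -0.58 ± 0.15). Dppa3, whose product protects the maternal genome from demethylation and limits maintenance methylation through Uhrf1, was higher, at 11.44 and 11.19 against 10.13 and 10.16 (1.17 ± 0.10, adjusted p = 0.00156). The dioxygenase gene Tet1 was at 11.80 and 11.98 against 10.60 and 10.31 (1.44 ± 0.32, adjusted p = 0.0223). The lower count was 1 without either Jmjd1b-KO array or either WT array, and 2 without Jmjd1a-KO replicate 1, whereas Dnmt3l and Dppa3 passed in each of these. Tet1 did not pass when any one of the 4 single-KO arrays was left out.

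Enzymes and readers of H3K9 methylation went in both directions. Of 11 measured genes 2 were higher and 2 lower, beside 13.6% and 14% of all genes, with a median of -0.06. Ehmt2, the gene of the G9a methyltransferase, was at 9.82 and 9.34 in Jmjd1a-KO and at 10.62 and 10.61 in Jmjd1b-KO, with WT at 9.53 and 9.55 (-1.04 ± 0.19, adjusted p = 0.0122). It did not pass without either Jmjd1b-KO array, and the count of lower genes was then 0. Cdyl, a chromodomain corepressor gene, was at 11.11 and 10.89 against 10.45 and 10.31 (0.62 ± 0.13, adjusted p = 0.0184), and did not pass without either Jmjd1b-KO array or Jmjd1a-KO replicate 1. Cbx5, the gene of heterochromatin protein HP1 alpha, gave 1.38 ± 0.11 on its brightest probe set (adjusted p = 0.00152), but its other probe sets gave -0.44 and -0.41, so its direction is not settled. Among 17 measured Polycomb genes 4 were lower and 1 was higher, beside 14% and 13.6% of all genes. The count of lower Polycomb genes fell without either Jmjd1b-KO array and rose without both arrays low in Y-linked transcripts. Jarid2, which recruits Polycomb repressive complexes, was at 11.22 and 11.06 against 11.71 and 11.80 (-0.61 ± 0.08, adjusted p = 0.00512).

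Among imprinted genes, the paternally expressed ones were often higher in Jmjd1a-KO. Of 16 measured paternally expressed genes 10 were higher in Jmjd1a-KO and none was lower (median 0.69). Of 12 measured maternally expressed genes 4 were lower and 1, Gnas, was higher (median -0.18). The count of higher paternally expressed genes was 6 without Jmjd1b-KO replicate 1 and 5 without replicate 2. The 4 lower maternally expressed genes included Rian, Meg3 and Mirg, which lie in one imprinted cluster and are noncoding RNAs, and outside it Phlda2 was the one lower member.

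Within that cluster, Rian was at 5.15 and 4.83 in Jmjd1a-KO, 10.61 and 10.86 in Jmjd1b-KO, 12.21 and 11.19 in WT and 5.51 and 4.85 in double-KO. Meg3 was at 6.22 and 5.74 in Jmjd1a-KO, 10.08 and 10.43 in Jmjd1b-KO, 11.72 and 10.13 in WT and 5.98 and 5.85 in double-KO. On these probe sets all arrays without Jmjd1a stood low and all arrays with it stood high. The differences between the single knockouts were -5.74 ± 0.37 for Rian (adjusted p = 0.000973), -4.28 ± 0.50 for Meg3 (adjusted p = 0.00344) and -1.71 ± 0.23 for Mirg (adjusted p = 0.00517). Other probe sets of Rian differed by -3.71, -1.83 and -0.82, and those of Meg3 by -5.17 to -0.15. Phlda2, a growth-restraining gene of another cluster, was at 9.34 and 9.89 in Jmjd1a-KO, 11.55 and 11.89 in Jmjd1b-KO and 11.64 and 11.80 in WT (-2.10 ± 0.24, adjusted p = 0.00318). Cdkn1c, a cyclin-dependent kinase inhibitor gene of the same region as Phlda2, did not pass between the single knockouts (-0.85 ± 0.27, adjusted p = 0.0617). It was far below WT in both, at 6.60 and 7.45 in Jmjd1a-KO and 7.87 and 7.89 in Jmjd1b-KO against 10.61 and 10.78.

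Among the paternally expressed genes the arrangement around WT varied. Impact, which restrains the translation kinase Gcn2, was at 11.59 and 11.66 in Jmjd1a-KO, 10.29 and 10.35 in Jmjd1b-KO and 10.14 and 10.07 in WT (1.30 ± 0.08, adjusted p = 0.000973), although another probe set of Impact gave -0.14. Kcnq1ot1, a long noncoding RNA gene, was at 9.22 and 8.87 against 7.59 and 6.95, with WT at 7.23 and 6.95 (1.77 ± 0.29, adjusted p = 0.00856), and did not pass without Jmjd1b-KO replicate 2. In these genes the Jmjd1a-KO arrays stood high. Mest was at 11.13 and 12.52 in Jmjd1a-KO, 9.62 and 9.57 in Jmjd1b-KO and 11.25 and 11.17 in WT (2.23 ± 0.43, adjusted p = 0.0147), and did not pass without either Jmjd1b-KO array. Nnat, a gene of neural and endocrine cells, was at 8.76 and 9.59 against 6.97 and 7.18, with WT at 8.43 and 8.45 (2.11 ± 0.30, adjusted p = 0.00591). Mest, Nnat and Plagl1 were thus low in Jmjd1b-KO, by -1.61, -1.37 and -2.29 against WT, and none of them passed against WT in Jmjd1a-KO. Igf2 and Snrpn did not pass between the single knockouts (0.21 ± 0.10 and 0.33 ± 0.11).

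Immediate early genes, which growth factors induce within minutes through existing transcription factors, included the largest differences after Kdm3a. Of 17 measured 6 were lower in Jmjd1a-KO, 1 was higher and 10 did not pass (median -0.73). Jun, the partner of Fos in AP-1, was at 6.81 and 7.40 in Jmjd1a-KO, 8.71 and 8.89 in Jmjd1b-KO and 7.19 and 7.41 in WT (-1.70 ± 0.31, adjusted p = 0.0122). Atf3, Dusp5 and Zfp36, genes of a stress-induced repressor, a phosphatase of ERK kinases and an mRNA decay factor, were lower by -0.91, -0.78 and -0.38. The phosphatase gene Dusp4 was the one higher member, at 8.04 and 9.18 against 6.52 and 6.72 (1.99 ± 0.43, adjusted p = 0.0203). Against WT, 5 members were higher in Jmjd1b-KO and 3 were lower in Jmjd1a-KO, beside 13.6% and 7.92% of all genes. Without either Jmjd1b-KO array the lower count was 3, and Jun, Dusp5 and Dusp4 did not pass, while Fos and Egr1 passed.

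Interferon-inducible genes, which act in antiviral defence and antigen presentation, were lower in Jmjd1a-KO for 12 of 21 measured members, and none was higher (median -0.56). The arrays of the groups did not overlap for all 21 members, beside 68.3% of all genes. Oas1a, the gene of an enzyme that activates RNase L, was at 7.44 and 7.55 in Jmjd1a-KO, 9.29 and 9.11 in Jmjd1b-KO and 8.09 and 8.31 in WT (-1.71 ± 0.13, adjusted p = 0.00130). Igtp, which encodes an immunity-related GTPase, was at 7.36 and 7.30 against 8.63 and 8.63, with WT at 7.19 and 7.30 (-1.30 ± 0.07, adjusted p = 0.000652). Ly6e, a surface protein gene, was at 8.47 and 8.53 against 10.23 and 10.24, with WT at 10.30 and 10.68 (-1.74 ± 0.15, adjusted p = 0.00160). Igtp was thus high in Jmjd1b-KO, Ly6e low in Jmjd1a-KO and Oas1a both. Ifi35 and Irgm1, neither of which passed without either Jmjd1b-KO array, and Oasl2 differed by -1.90, -1.32 and -1.10, and Irf1, the gene of a transcription factor that activates such genes, by -0.87 ± 0.07 (adjusted p = 0.00127). Set against WT, 10 members were lower in Jmjd1a-KO, beside 7.92% of all genes. In Jmjd1b-KO 3 members were higher and 1 lower than in WT, beside 13.6% and 10.2% of all genes. The lower count between the knockouts was 5 without Jmjd1b-KO replicate 1 and 6 without replicate 2. The single blood cell marker that was measured ranged from 6.91 to 7.03 in Jmjd1a-KO and from 7.13 to 7.22 in Jmjd1b-KO.

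A pair of TTTC copies with 2 free bases between them, the core of the element bound by interferon-activated factors, was looked for in the same windows on both strands, with overlapping matches allowed. It occurred in 9 of 18 interferon-inducible genes with a window (50%) and in 5 of the 10 lower ones, beside 3% of tested genes and 3.46% of all genes. The stretches of 3 lower genes are shown for the place of the match near the start site, in capitals, where Oas1a and Irgm1 hold 2 overlapping matches each. They are Oas1a at chr5:120907526-120907584 (minus strand), Irgm1 at chr11:48871421-48871489 (minus) and Igtp at chr11:58199477-58199555 (plus), on GRCm38.p6.
Oas1a: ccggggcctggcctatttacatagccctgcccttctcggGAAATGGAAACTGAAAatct
Irgm1: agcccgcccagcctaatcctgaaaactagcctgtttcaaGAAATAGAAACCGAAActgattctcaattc
Igtp: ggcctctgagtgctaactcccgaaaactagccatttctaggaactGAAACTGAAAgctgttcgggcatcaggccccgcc
The matches end 4, 14 and 24 bases before the start sites of Oas1a, Irgm1 and Igtp. They are written here on the gene's strand, where the element reads in its reverse form.

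The integrated stress response works through the factor Atf4, which is translated when the initiation factor eIF2 is phosphorylated and is known to drive genes of amino acid supply. In its list 6 of 17 measured genes were lower in Jmjd1a-KO and none was higher (median -0.46), as were 9 of 17 aminoacyl-tRNA synthetase genes (median -0.41) and 5 of 13 amino acid transporter genes (median -0.35), beside 14% of all genes. Of 21 measured genes of serine, one-carbon and amino acid enzymes 4 were lower, which is nearer to that background, 1 was higher and 16 did not pass (median -0.24). Cth, for cysteine synthesis, Gpt2 and Asns stand in both the stress and the enzyme list, and Asns did not pass. Atf4 itself did not pass, at 11.79 and 11.80 in Jmjd1a-KO against 12.25 and 12.24 in Jmjd1b-KO (-0.44 ± 0.17, adjusted p = 0.104). Ddit3, the gene of the stress factor CHOP, gave 0.47 ± 0.31 (adjusted p = 0.293).

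Nupr1, a stress-induced chromatin protein gene, was at 7.91 and 8.36 in Jmjd1a-KO, 10.80 and 11.29 in Jmjd1b-KO and 9.17 and 9.21 in WT (-2.91 ± 0.34, adjusted p = 0.00341). Cth was at 8.89 and 9.0 against 11.34 and 11.55, with WT at 9.13 and 9.27 (-2.51 ± 0.22, adjusted p = 0.00160). Both were higher in Jmjd1b-KO than in WT (1.86 and 2.25), and their differences between Jmjd1a-KO and WT did not pass. Psph, the last enzyme of serine synthesis, was at 10.21 and 10.35 against 11.51 and 11.73 (-1.34 ± 0.13, adjusted p = 0.00212). The synthetase genes moved less: Cars, for cysteine, was at 9.26 and 9.09 against 10.13 and 10.25 (-1.01 ± 0.17, adjusted p = 0.00956), and Yars, Lars, Tars, Nars, Farsa, Gars, Wars and Vars differed by -0.63 to -0.27. The arginine transporter gene Slc7a1 was at 8.20 and 9.02 in Jmjd1a-KO, 9.91 and 10.16 in Jmjd1b-KO and 10.31 and 10.23 in WT (-1.43 ± 0.27, adjusted p = 0.0134). These counts depended on the Jmjd1b-KO arrays: without replicate 1 or replicate 2 of that group the lower synthetase genes numbered 3 and 1, the transporters 1 and 1, the stress response genes 5 and 4, and the enzymes 2 and 2. Without Jmjd1a-KO replicate 1 or 2 the lower transporter genes numbered 3, and without either double-KO array the lower enzyme genes numbered 7. Without both arrays low in Y-linked transcripts 11 stress response genes and 8 enzyme genes were lower. Cars and Slc7a1 did not pass without either Jmjd1b-KO array.

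The octamer TGATGNAA, which Atf4 binds in pairs with C/EBP factors, was searched for in the same way. It occurred in 6 of 14 genes of the stress response with a window (42.9%) and in 3 of 10 synthetase genes (30%), beside 2.25% of tested genes and 3.91% of all genes. Among the lower genes it occurred in 3 of 5 and in 2 of 4. The 3 lower stress response genes are shown with the match in capitals: Nupr1 at chr7:126625528-126625625 (minus strand), Herpud1 at chr8:94386272-94386369 (plus) and Atf3 at chr1:191183391-191183488 (minus), on GRCm38.p6.
Nupr1: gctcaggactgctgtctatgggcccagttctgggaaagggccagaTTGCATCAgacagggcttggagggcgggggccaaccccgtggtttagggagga
Herpud1: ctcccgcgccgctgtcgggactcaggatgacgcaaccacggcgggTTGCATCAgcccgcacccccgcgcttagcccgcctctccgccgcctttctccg
Atf3: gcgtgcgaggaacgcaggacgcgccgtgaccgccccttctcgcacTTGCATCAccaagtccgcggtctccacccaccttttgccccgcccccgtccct
All carry the same octamer, the reverse form of the motif on the gene's strand. Herpud1, a gene of protein quality control in the endoplasmic reticulum, was at 8.55 and 8.44 in Jmjd1a-KO against 9.47 and 9.68 in Jmjd1b-KO (-1.08 ± 0.14, adjusted p = 0.00486).

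Most core pluripotency genes did not pass between the single knockouts, and some naive genes were higher in Jmjd1a-KO. Of 19 measured core genes 3 were higher, 1 was lower and 15 did not pass (median 0.02). Their differences ranged from -1.46 in Fgf4, which did not pass, to 1.43 in Zfp42. Of 19 measured naive genes 5 were higher and 1 was lower, beside 13.6% and 14% of all genes (median 0.34). Zfp42, the gene known as Rex1, was at 12.80 and 13.00 in Jmjd1a-KO, 11.55 and 11.40 in Jmjd1b-KO and 11.93 and 11.86 in WT (1.43 ± 0.15, adjusted p = 0.00289). Lifr, a chain of the LIF receptor, was at 10.25 and 9.80 against 8.96 and 8.62 (1.23 ± 0.20, adjusted p = 0.00839), and Tfcp2l1, a LIF target gene, at 9.03 and 8.87 against 8.39 and 8.05 (0.73 ± 0.13, adjusted p = 0.0115). Klf2 was the one naive gene that was lower, at 10.85 and 10.69 against 11.68 and 11.77, with WT at 10.59 and 10.71 (-0.96 ± 0.11, adjusted p = 0.00311). Nanog, Pou5f1, Klf4 and Esrrb did not pass, with differences of 0.26 ± 0.21, -0.19 ± 0.16, 0.87 ± 0.45 and 1.63 ± 0.56. Without Jmjd1b-KO replicate 2, Lifr and Tfcp2l1 did not pass and 2 naive genes were higher. The higher naive genes numbered 8 without either double-KO array, and 9 without both arrays low in Y-linked transcripts. The higher core genes numbered 1 without either Jmjd1b-KO array, and 6 core genes were lower without both arrays low in Y-linked transcripts.

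Genes of the formative epiblast, the stage that follows the naive state, went in both directions: 6 of 19 measured were lower and 3 higher (median -0.32). Otx2, a homeobox factor of this stage, was at 9.40 and 8.79 in Jmjd1a-KO, 10.34 and 10.79 in Jmjd1b-KO and 9.64 and 9.74 in WT (-1.47 ± 0.33, adjusted p = 0.0235). Etv5, a target of FGF signalling, was at 10.05 and 10.69 against 11.66 and 11.76, with WT at 11.26 and 11.31 (-1.34 ± 0.20, adjusted p = 0.00723). Fgf15 and Zic2 were lower by -0.93 and -0.80, and Dnmt3a and Dnmt3b, named above, complete the lower members. The higher ones were Cdh2, Sox3 and Etv4, of which Sox3 also stands in the neural list. Higher members numbered 1 and 0 on omission of Jmjd1b-KO replicates 1 and 2, 2 without either WT array or Jmjd1a-KO replicate 2, and 5 without both arrays low in Y-linked transcripts. Otx2 did not pass without either WT or Jmjd1b-KO array or without Jmjd1a-KO replicate 2, and Etv5 without Jmjd1b-KO replicate 2. Lower members numbered 2 without either WT array, 3 when Jmjd1a-KO replicate 1 was omitted, and 1 and 0 on omission of Jmjd1b-KO replicates 1 and 2, and they numbered 12 without both arrays low in Y-linked transcripts.

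Bmp4, a secreted ligand that supports self-renewal together with LIF, was lower in Jmjd1a-KO. It was at 7.23 and 7.23 in Jmjd1a-KO, 9.58 and 8.93 in Jmjd1b-KO and 7.57 and 7.91 in WT (-2.03 ± 0.29, adjusted p = 0.00623). Among the higher genes of the pathway were the receptor gene Bmpr2 and the transducer gene Smad1: Bmpr2 was at 9.01 and 9.13 against 7.97 and 7.81 (1.18 ± 0.15, adjusted p = 0.00427), and Smad1 was at 9.57 and 9.50 against 8.91 and 8.94 (0.61 ± 0.08, adjusted p = 0.00536). Of 19 measured genes of the BMP and Nodal pathway 5 were higher, 2 were lower and 12 did not pass, and the inhibitory gene Smad6 was the other lower one (-0.40 ± 0.08, adjusted p = 0.0150). The target genes Id1 and Id2 did not pass, with -0.70 ± 0.30 and 1.44 ± 0.51. Smad5 gave 0.62 on its brightest probe set and -0.33 on another, and did not pass without either Jmjd1b-KO array. Higher members numbered 2 without either Jmjd1b-KO array and 8 without either double-KO array, and the lower count was 4 without Jmjd1a-KO replicate 2, 5 without both arrays low in Y-linked transcripts and 1 without either Jmjd1b-KO array.

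Neural genes were higher in Jmjd1a-KO than in Jmjd1b-KO for 8 of 21 measured members, and 1, Zic2, was lower (median 0.38). Compared with WT, 9 members were lower in Jmjd1b-KO, beside 10.2% of all genes, and none passed in either direction in Jmjd1a-KO. The median differences from WT were -0.34 in Jmjd1b-KO and -0.08 in Jmjd1a-KO. Fabp7, the brain fatty acid binding protein gene of radial glia, was at 7.66 and 9.64 in Jmjd1a-KO, 5.29 and 5.25 in Jmjd1b-KO and 10.61 and 10.72 in WT (3.38 ± 0.68, adjusted p = 0.0167). Its differences from WT were -2.02 in Jmjd1a-KO, which did not pass, and -5.40 in Jmjd1b-KO. Sox1, an early neuroectoderm factor gene, was at 7.72 and 9.76 against 6.17 and 6.02, with WT at 9.28 and 9.28 (2.65 ± 0.72, adjusted p = 0.0415). Insm1, a zinc finger gene of neural progenitors that is not in the list, was at 7.67 and 9.68 against 5.82 and 5.64 (2.95 ± 0.67, adjusted p = 0.0244). In all 3 genes replicate 2 of Jmjd1a-KO stood about 2 above replicate 1, and that replicate is also the one low in Y-linked transcripts. The 5 measured of 6 neural markers had mean levels of 7.90 and 8.64 in the Jmjd1a-KO arrays, 7.40 to 7.49 in Jmjd1b-KO and 8.34 to 8.43 in WT, and their part in these differences was not tested.

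More even between replicates was Dpysl2, a gene of axon growth, at 10.50 and 11.16 in Jmjd1a-KO, 9.05 and 9.14 in Jmjd1b-KO and 11.27 and 11.39 in WT (1.73 ± 0.21, adjusted p = 0.00386). Cdh2, which encodes N-cadherin and is not in the neural list, was at 9.05 and 9.81 against 6.91 and 6.40. Its WT values were 9.47 and 9.61, and its difference between the single knockouts was 2.78 ± 0.40 (adjusted p = 0.00618 by limma). Dpysl2 passed without each single array, whereas Cdh2 did not pass without Jmjd1b-KO replicate 2. The number of higher neural genes was 8 also without both arrays low in Y-linked transcripts, 10 without Jmjd1a-KO replicate 1, 6 without replicate 2, 4 without Jmjd1b-KO replicate 1 and 3 without replicate 2. Fabp7, Sox1 and Insm1 did not pass without either Jmjd1b-KO array, Sox1 and Insm1 without either WT array, and Sox1 without Jmjd1a-KO replicate 2.

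**Figure D4:**
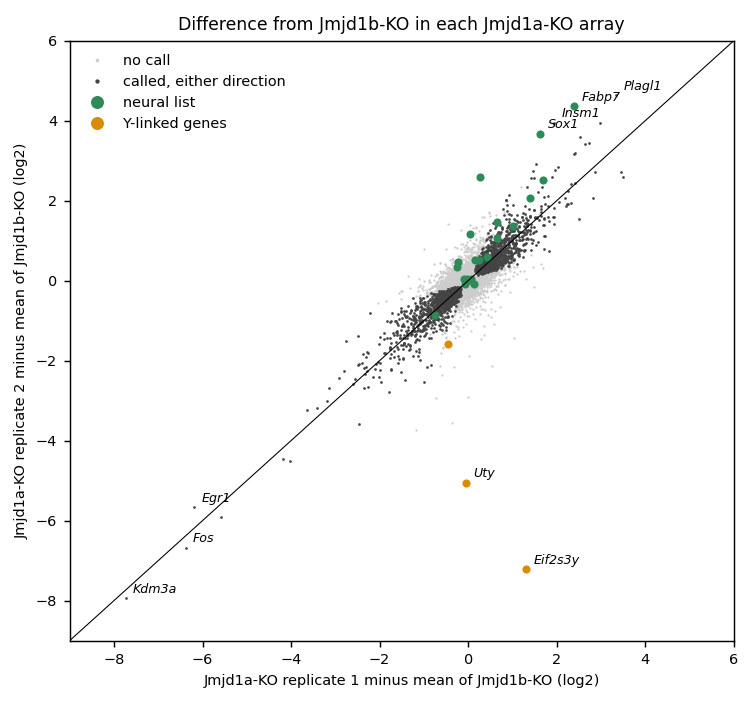
Each point is 1 gene, with the log2 difference of Jmjd1a-KO replicate 1 (x axis) and of replicate 2 (y axis) from the mean of the 2 Jmjd1b-KO arrays, and the line marks equal values. Fabp7, Insm1 and Sox1 lie above the line because replicate 2 was higher, and the Y-linked genes Uty and Eif2s3y lie far below it.

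Several collagen and actin filament genes were lowest in Jmjd1b-KO, intermediate in Jmjd1a-KO and highest in WT. Of 14 measured fibroblast and mesenchymal matrix markers, from 25 listed, 7 were higher in Jmjd1a-KO than in Jmjd1b-KO and 2 were lower (median 0.64). Col1a2, a chain of fibrillar collagen, was at 9.06 and 8.71 in Jmjd1a-KO, 7.01 and 6.70 in Jmjd1b-KO and 10.52 and 10.67 in WT (2.03 ± 0.16, adjusted p = 0.00136). Col3a1 was at 7.65 and 7.27 against 5.49 and 5.14, with WT at 8.13 and 8.26 (2.14 ± 0.18, adjusted p = 0.00152). Another probe set of Col3a1 gave a smaller difference of 0.29. Fn1, the fibronectin gene, was at 12.18 and 11.82 in Jmjd1a-KO and in WT, and at 10.90 and 10.86 in Jmjd1b-KO (1.12 ± 0.17, adjusted p = 0.00681). Against WT, 8 of the 14 were lower in Jmjd1a-KO and 9 in Jmjd1b-KO, beside 7.92% and 10.2% of all genes. The mean level of the 14 markers was 7.82 to 7.85 in Jmjd1a-KO, 7.07 to 7.17 in Jmjd1b-KO, 8.46 to 8.55 in WT and 7.57 to 7.67 in double-KO. These markers are also those of feeder fibroblasts, and the part of other cells in the differences was not tested. Col1a1 gave 0.89 on its brightest probe set, while another probe set had a mean of 7.0 in both groups. Higher members numbered 4 without Jmjd1b-KO replicate 1 and 2 without replicate 2, and Fn1 did not pass without the latter.

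Contractile genes of smooth muscle type were often higher too. Of 17 measured 9 were higher in Jmjd1a-KO, 2 were lower and 6 did not pass (median 0.39). Acta2, the smooth muscle actin gene, was at 9.84 and 8.89 in Jmjd1a-KO, 7.50 and 7.19 in Jmjd1b-KO and 11.95 and 12.24 in WT (2.02 ± 0.40, adjusted p = 0.0162). Tagln, which encodes the actin-binding protein transgelin, was at 8.65 and 8.68 against 7.20 and 6.99, with WT at 10.26 and 10.57 (1.57 ± 0.24, adjusted p = 0.00712). Both genes were below WT in both single knockouts, by -2.74 and -4.75 for Acta2 and -1.75 and -3.32 for Tagln. Cnn2, Cald1 and Tpm4, genes of calponin, caldesmon and tropomyosin, were higher by 1.00, 1.05 and 1.30, and each passed without any 1 array. Calponin gene Cnn1 was lower, at 7.33 and 7.16 against 8.21 and 8.22 (-0.97 ± 0.12, adjusted p = 0.00379), and Palld was lower by -0.91. The higher count was 5 without Jmjd1b-KO replicate 1 and 4 without replicate 2. Acta2 did not pass without either of these arrays, and Tagln without the latter.

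In the list of endoderm and basement membrane 7 of 17 measured genes were higher in Jmjd1a-KO and 1, Sparc, was lower (median 0.50). Lama1, a laminin chain gene, was at 8.34 and 8.12 in Jmjd1a-KO, 6.61 and 6.47 in Jmjd1b-KO and 7.37 and 7.56 in WT (1.69 ± 0.17, adjusted p = 0.00242). Col4a1 was at 8.91 and 8.60 against 7.41 and 7.33, with WT at 8.40 and 8.65 (1.39 ± 0.23, adjusted p = 0.00882), and Dab2, an endocytic adaptor gene of extraembryonic endoderm, at 7.38 and 7.44 against 6.12 and 6.34 (1.18 ± 0.21, adjusted p = 0.0116). Sox2, which the list also holds, is a pluripotency gene. The mean of the 3 measured of 9 endoderm markers ranged from 6.74 to 6.86 in Jmjd1a-KO and from 6.21 to 6.25 in Jmjd1b-KO. The higher count was 3 without Jmjd1a-KO replicate 1 and 1 without either Jmjd1b-KO array, and Lama1 passed without each array, whereas Col4a1 and Dab2 did not pass without either Jmjd1b-KO array.

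The 4 called keratin genes of simple epithelia were lower in Jmjd1a-KO. Krt19 was at 7.31 and 6.81 in Jmjd1a-KO, 8.88 and 9.22 in Jmjd1b-KO and 7.20 and 7.33 in WT (-1.99 ± 0.19, adjusted p = 0.00189), and Krt18 was at 7.70 and 7.80 against 8.83 and 9.04, with WT at 7.86 and 8.07 (-1.18 ± 0.11, adjusted p = 0.00177). Krt8, the partner of Krt18 in filaments, and Krt7 were lower by -1.15 and -0.70. Krt8 did not pass without either WT array, either Jmjd1b-KO array or Jmjd1a-KO replicate 1, whereas the other 3 keratin genes passed without each single array. In these genes Jmjd1a-KO and WT lay together and Jmjd1b-KO stood high. The junction genes of the list did not share this direction: Perp and Dsg2 were higher, and the E-cadherin gene Cdh1 did not pass (-0.20 ± 0.09). In all, 4 of 20 measured genes were lower and 2 higher (median 0.01). The higher count was 7 on omission of Jmjd1a-KO replicate 2, 10 without both arrays low in Y-linked transcripts, 1 when Jmjd1a-KO replicate 1, either WT array or Jmjd1b-KO replicate 1 was omitted, and 0 when Jmjd1b-KO replicate 2 was. Among 8 measured trophoblast factors 3 were higher and 2 lower. Tfap2c, an AP-2 factor gene, was at 10.80 and 10.68 in Jmjd1a-KO and 9.79 and 9.53 in Jmjd1b-KO (1.08 ± 0.11, adjusted p = 0.00243), both far above WT at 8.16 and 8.36.

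Among 17 measured targets of p53, 6 were higher and 1 was lower, beside 13.6% and 14% of all genes, with a median of -0.01. Pmaip1, which encodes the apoptosis inducer Noxa, was at 11.03 and 11.04 in Jmjd1a-KO, 9.93 and 9.72 in Jmjd1b-KO and 10.06 and 9.92 in WT (1.21 ± 0.15, adjusted p = 0.00437). Zmat3 and Ccng1, the genes of an RNA-binding protein and of cyclin G1, were higher by 1.01 and 0.90, likewise with WT on the side of Jmjd1b-KO. These 3 passed without each single array. Cdkn1a, the best known target, did not pass (-0.51 ± 0.15, adjusted p = 0.0529). The higher count was 3 and the lower count 0 without either Jmjd1b-KO array. Lower members numbered 2 without either Jmjd1a-KO array, and without both arrays low in Y-linked transcripts 8 were higher and 5 lower.

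Sterol and fatty acid synthesis showed 5 higher and 2 lower of 28 measured genes, beside 13.6% and 14% of all genes, and a median of 0.00. Insig1, which retains the sterol sensor in the endoplasmic reticulum, was at 10.99 and 10.69 in Jmjd1a-KO, 9.25 and 9.36 in Jmjd1b-KO and 9.88 and 9.97 in WT (1.54 ± 0.18, adjusted p = 0.00324), and Hmgcs1, an early enzyme of the mevalonate pathway, was at 12.78 and 12.55 against 11.73 and 11.74 (0.93 ± 0.10, adjusted p = 0.00247). The higher count was 3 and the lower count 0 without either Jmjd1b-KO array, and 4 were lower without both arrays low in Y-linked transcripts. Glycolysis and hypoxia genes, among which Kdm3a itself is listed, were lower for 5 of 29 measured members with Kdm3a included, and none was higher (median -0.28). Kdm3a is the deleted gene, and the lower count is near the 14% of all genes. The other lower members were Egln3, Pfkfb3, Higd1a and P4ha2, between -1.47 and -0.41. Replicates of Jmjd1a-KO were apart in this list, as in Egln3 at 10.07 and 8.80 against 10.84 and 10.98 in Jmjd1b-KO. The lower count was 14 without Jmjd1a-KO replicate 1, 3 without either WT or either double-KO array and 1 without either Jmjd1b-KO array. Without both arrays low in Y-linked transcripts 8 members were lower and 6 were higher, so that the absence of higher members did not hold there. Of 22 measured DNA replication genes 3 were lower, near the 14% of all genes, and of 21 genes of G1 cyclins and kinases 3 were higher and 3 lower, with medians of -0.11 and -0.12. Without either Jmjd1b-KO array the lower count was 0 in both lists, and the lower G1 genes numbered 1 without either WT array and 7 without Jmjd1a-KO replicate 2 or without both arrays low in Y-linked transcripts.

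**Figure D5:**
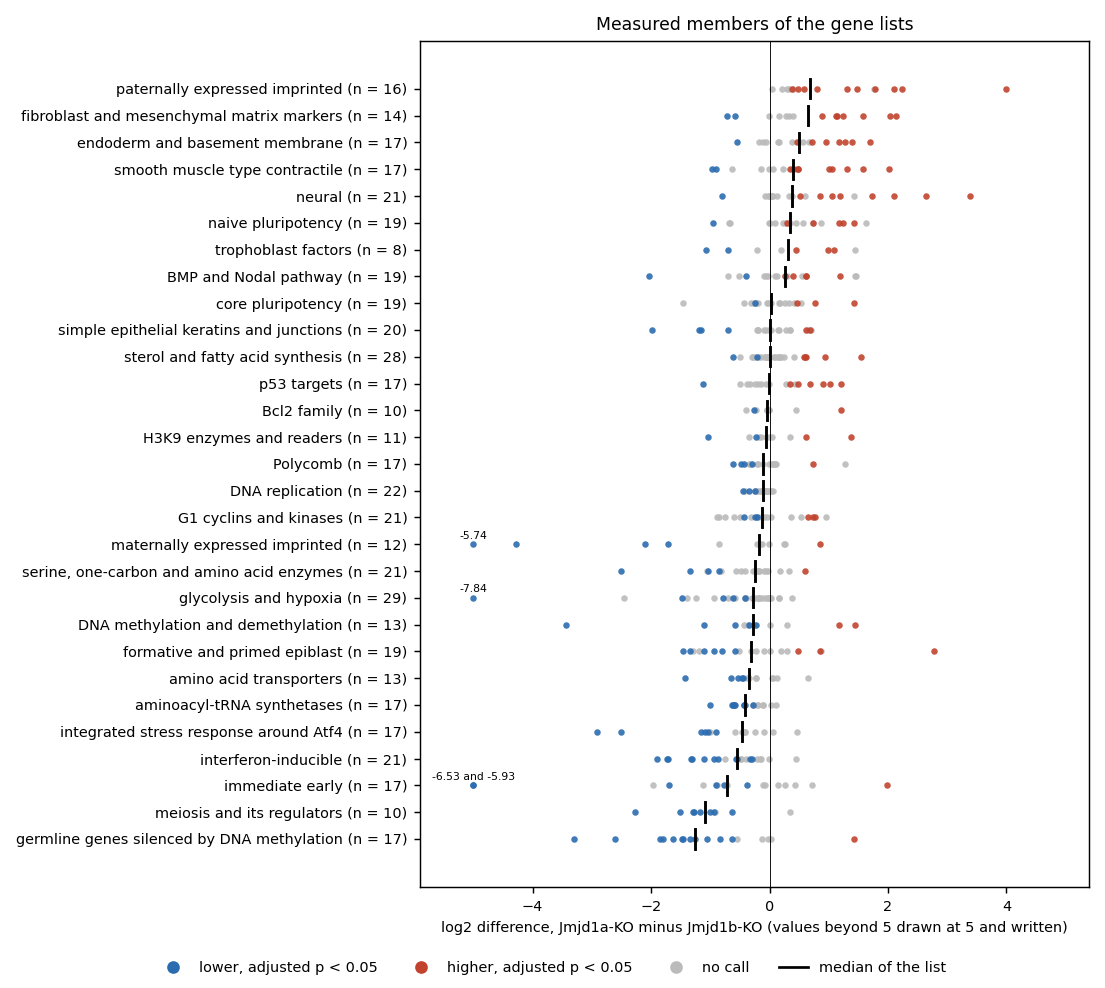
Log2 difference, Jmjd1a-KO minus Jmjd1b-KO, of each measured member of the gene lists with 8 or more measured members (stem cell markers left out), with lists ordered by their median (black bar) and members past the adjusted p of 0.05 in colour. Among the lists plotted, germline and meiosis genes have the lowest medians, -1.25 and -1.10, and the paternally expressed imprinted genes the highest, 0.69.

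The double-KO arrays, which did not enter the difference between the single knockouts, lay nearer to Jmjd1a-KO than to Jmjd1b-KO at most genes. At an adjusted p under 0.05 by limma, 2155 genes (30%) differed between double-KO and Jmjd1a-KO, and 3721 (51.8%) between double-KO and Jmjd1b-KO. This held for 792 of the 974 genes higher in Jmjd1a-KO (81.3%) and for 778 of the 1004 lower ones (77.5%), beside 66.4% of all genes. As the double-KO cells derive from a line deficient in Jmjd1a, the lack of Jmjd1a and a shared line cannot be told apart here. Rian, Meg3, Plac8 and Rhox5 followed this rule, with Rhox5 at 8.46 and 8.73 in double-KO. Several germline genes did not: Dazl was at 9.60 and 9.55 in double-KO, above both single knockouts, Mael at 9.08 and 9.27, and Slc25a31 at 8.26 and 8.40. Gbp2, an interferon-inducible GTPase gene, was at 5.55 and 6.06 in Jmjd1a-KO, 6.68 and 6.80 in Jmjd1b-KO and 11.02 and 10.44 in double-KO. WT was nearer to Jmjd1a-KO in 499 of the 974 higher genes (51.2%) and in 587 of the 1004 lower ones (58.5%), beside 52.3% of all genes. The share among the higher genes was thus near that of all genes, and which line departed from WT varied from gene to gene.

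By chromosome, the median difference ranged from -0.09 on chromosome 7 to 0.09 on the X chromosome. On the X chromosome 24.6% of genes were higher and 10.2% lower in Jmjd1a-KO, and on chromosome 7 the shares were 8.07% and 18%. Nrk, an X-linked kinase gene, was at 10.86 and 9.95 in Jmjd1a-KO, 7.32 and 7.42 in Jmjd1b-KO and 8.16 and 7.89 in WT (3.04 ± 0.39, adjusted p = 0.00437). Its other probe sets gave differences of 2.13 and 0.05.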

How the data were processed

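RNA was labelled as cRNA from 200 ng per sample and measured on 8 Affymetrix arrays, per the labels' protocols. The deposited table holds the authors' log2 values, 1 per probe set and array; the unit was read from the values. R 2.7.2 is named in the submitters' processing notes, but the sources used here do not state how probes were normalized and summarized. Probe sets with a span under 0.01 across the 8 arrays, 74.5% of all, were left out. Probe sets with 1 gene symbol in the platform table numbered 34958, with several 932 and with none 9211; only the first kind was tested. Of these, 34754 had a gene ID in the RefSeq gene table of GRCm38.p6, and 0 symbols changed. Each of 7181 genes was represented by its informative probe set with the highest mean.

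All 8 arrays entered a limma 3.58.1 fit (R 4.3.3; lmFit, then eBayes) of the 4 group means, which had 4 residual and 1.91 prior degrees of freedom. Benjamini-Hochberg adjusted p-values under 0.05 were called, and the script was tested on simulated data. The main fit held no replicate block. Same-numbered deviations correlated at -0.01 between the single knockouts and between -0.12 and 0.22 over all pairs of groups. Such correlations cannot settle whether arrays with the same number belong together. Replicate 2 of Jmjd1a-KO and replicate 2 of double-KO were both low in Y-linked transcripts. Named genes were Kdm3a, Kdm3b, the 15 largest differences each way among non-overlapping genes past the threshold, up to 6 members past it per list, and further members that a sentence needed, which were picked by eye. The comparison, the lists and the marker genes were chosen with earlier results of these data known. Motifs were searched in 250 bases upstream of 32851 RefSeq start sites. Figures were drawn with matplotlib 3.10.9.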

Additional observations from a re-analysis of the deposited data

How the results depend on the processing

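The main counts were 1978 genes, 974 higher and 1004 lower in Jmjd1a-KO. Flat probe sets included, 851 of 18194 genes passed (342 and 509), of which 612 were among the 1978. The limma prior then rests on flat genes. At an adjusted p under 0.01 there were 788 (360 and 428), and with a difference of at least 1 there were 417 (198 and 219). With only the 4 arrays compared, 664 genes were lower and 1319 differed in all. Without both arrays low in Y-linked transcripts, an alternative chosen after seeing the data, 3053 differed and 1706 were lower. Omission of 1 array gave 599 to 2240 genes, 267 to 977 higher and 332 to 1272 lower. The lowest came without Jmjd1b-KO replicate 2 (599) and replicate 1 (726), and the cause was not tested. The fit with a replicate block gave 1787 genes (868 and 919), of which 1690 were among the 1978. Quantile normalization gave 2023, centring 2017, array weights 1642 and the mean of probe sets 2093. Kdm3a ranged from -7.94 to -7.73 and Kdm3b from 2.72 to 2.86, and both passed in all settings. Eif2s3y, which had no call, ranged from -7.21 to 1.32 over omissions of 1 array, with 1.32 without Jmjd1a-KO replicate 2, and turned to 1.32 without both low arrays. Of 165 other named genes with a call, 62 kept it in every setting that tested them, 103 lost it in at least 1, and 0 changed direction. The replicate block ended 16 of these calls, and the fit of 4 arrays 32. Signal over background was not analysed here.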

Other observations

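Among the largest differences were genes that belong to none of the gene lists. Snhg14, a noncoding RNA that carries small nucleolar RNAs in an imprinted region, was at 10.94 and 10.20 in Jmjd1a-KO, 7.47 and 7.50 in Jmjd1b-KO and 9.11 and 7.20 in WT, so that the WT arrays were themselves apart (3.08 ± 0.65, adjusted p = 0.0192 by limma). Its call was lost without Jmjd1a-KO replicate 1 or either Jmjd1b-KO array. Frmd4b, a FERM domain gene, was at 8.23 and 9.01 in Jmjd1a-KO, 5.94 and 5.69 in Jmjd1b-KO and 7.41 and 7.59 in WT (2.81 ± 0.25, adjusted p = 0.00171 by limma). It was higher than WT in Jmjd1a-KO (1.12) and lower than WT in Jmjd1b-KO (-1.69). Lpar6, a lysophosphatidic acid receptor gene, was at 8.67 and 9.48 in Jmjd1a-KO, 6.72 and 6.56 in Jmjd1b-KO and 8.97 and 8.80 in WT, and passed without each single array (2.44 ± 0.30, adjusted p = 0.00405 by limma).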
